A study of Mus musculus with 10 samples.

Results

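The alpha chains described here carry 3 joining segments of the mouse T cell receptor (TCR) alpha locus, TRAJ12, TRAJ30 and TRAJ34. They were chosen by the amino acid end of their CDR3 alone: YKVVF for TRAJ12, YKVIF for TRAJ30 and NKVVF for TRAJ34. Of 387286 clonotype entries in the 10 deposited tables, 27238 met this rule, which was 14.3% of the 190284 entries with an alpha chain (TRA) end. TRAJ12 had 9052 entries, TRAJ30 had 8588 and TRAJ34 had 9598. Another 57 entries, with 89 counts in all, ended in KVVF or KVIF after a different residue and stayed outside the rule, against 75690 counts inside it.

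The libraries came from regulatory T (Treg) cells of mouse spleen, with no treatment and no culture before RNA extraction. Samples of the CNS4KO strain, labelled KO, numbered 5, and so did samples of the CNS4Flox strain, labelled WT. CNS4 is an enhancer of Foxp3, which encodes the transcription factor on which Treg cells depend: CNS4KO mice lack it, and in CNS4Flox mice it is flanked by loxP sites. The Cre driver, the age and sex of the mice and the number of cells were not given, nor whether each sample was a separate mouse, so p-values reflect only how far these samples differ, which may be technical. The libraries hold TCR transcripts alone, so neither Treg identity nor the deletion could be checked in them.

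An alpha chain gene is assembled in the thymus by joining a V segment to a J segment, with no D segment between them. Bases are trimmed from both ends and untemplated bases are added at the join, so the middle of the CDR3, the loop that contacts the antigen, differs between T cells while its end keeps the J-encoded residues. Different joins can encode the same protein, so a single amino acid CDR3 can appear as several nucleotide sequences. CDR3s that many joins can produce are known to recur between individuals.

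The segments lie on chromosome 14, where RefSeq (GRCm38.p6, the build named mm10) lists Traj34 at 54184699 to 54184756, Traj30 at 54189866 to 54189924 and Traj12 at 54206552 to 54206610. The tables list these alpha chains under beta chain names: 99.8% of TRAJ12 entries were named TRBJ1-5, and 99.99% of both TRAJ30 and TRAJ34 entries were named TRBJ1-1. Those names were not used. The commonest base at each position, read back from the CDR3 end as far as that base was in at least 50% of distinct sequences, gave the shared end of each set, shown 5′ to 3′ because every sequence below is built on it.
TRAJ12: GGGACTGGAGGCTATAAAGTGGTCTTT
TRAJ30: CACAAATGCTTACAAAGTCATCTTT
TRAJ34: CTTCCAATACCAACAAAGTCGTCTTT

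The CDR3s with the most nucleotide variants show how a single protein sequence was written in many ways. In each set below the first line is the sequence found in the most libraries, in lower case, and capitals in the other 4 lines mark bases that differ from it. TRAJ12 CDR3s are named here by the residues ahead of their common end TGGYKVVF, so that the CDR3 that begins CAAR has that end after it. The CAAR CDR3 had 24 nucleotide sequences over all libraries. The differences between these lines lay in codons 2 to 4 and left the residues unchanged.
CAAR, 9 libraries: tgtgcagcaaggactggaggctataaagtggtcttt
CAAR, 6 libraries and 73 counts: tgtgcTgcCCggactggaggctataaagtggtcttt
CAAR, 6 libraries and 28 counts: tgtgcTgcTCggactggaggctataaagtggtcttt
CAAR, 6 libraries and 22 counts: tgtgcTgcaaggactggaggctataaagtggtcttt
CAAR, 6 libraries and 19 counts: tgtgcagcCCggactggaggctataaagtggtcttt

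The TRAJ30 CDR3 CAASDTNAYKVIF had 19 nucleotide sequences, the highest number of any TRAJ30 CDR3, and was also its most abundant shared CDR3. The first 2 sequences held 676 and 359 counts over all libraries.
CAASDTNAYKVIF, 9 libraries: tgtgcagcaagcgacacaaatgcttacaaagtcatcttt
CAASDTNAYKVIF, 8 libraries: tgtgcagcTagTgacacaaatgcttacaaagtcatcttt
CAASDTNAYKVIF, 7 libraries: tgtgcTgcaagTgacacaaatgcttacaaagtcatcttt
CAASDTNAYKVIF, 6 libraries: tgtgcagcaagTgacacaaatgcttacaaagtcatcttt
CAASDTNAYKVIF, 5 libraries: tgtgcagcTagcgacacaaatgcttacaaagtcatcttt

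The TRAJ34 CDR3 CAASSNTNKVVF had 27 nucleotide sequences, more than any other CDR3 of the 3 segments. The sequence with 18 counts differs from the first at 5 bases and still encodes the same residues.
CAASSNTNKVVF, 9 libraries and 174 counts: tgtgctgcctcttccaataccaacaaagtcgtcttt
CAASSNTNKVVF, 9 libraries and 39 counts: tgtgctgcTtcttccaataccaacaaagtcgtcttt
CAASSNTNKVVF, 9 libraries and 18 counts: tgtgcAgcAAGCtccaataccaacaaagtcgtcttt
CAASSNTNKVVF, 8 libraries: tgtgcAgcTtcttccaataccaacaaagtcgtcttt
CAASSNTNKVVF, 7 libraries: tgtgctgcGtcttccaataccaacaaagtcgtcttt

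A nucleotide clonotype here is a CDR3 nucleotide sequence with its J end, and its level is a deposited count, whose meaning as reads or molecules is not stated. TRA counts were 40091 to 68224 per CNS4KO library and 40547 to 50059 per CNS4Flox library. Counts were low for single sequences: 57.9% of TRAJ12, 60.5% of TRAJ30 and 61.0% of TRAJ34 clonotypes of a library had a count of 1. A count of 0 allows a share of up to 0.00440% to 0.00748% of the TRA counts, depending on the library (3 counts of its total). Intervals and this limit cover counting error only. One pair of libraries from different groups, CNS4KO replicate 5 and CNS4Flox replicate 3, had 628 nucleotide clonotypes of the 3 segments in common, the highest number for any pair across groups, followed by 537 for the next such pair. The median was 456 across groups, 367.5 between CNS4KO libraries and 563.5 between CNS4Flox libraries. Values without that pair are given where they change a call and beside the main difference.

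The share of alpha chain counts that each segment took did not separate the groups. TRAJ12 held 5.57%, 5.76%, 5.08%, 6.45% and 5.09% of TRA counts in CNS4KO replicates 1 to 5, against 5.35%, 5.55%, 5.56%, 5.51% and 5.30% in CNS4Flox replicates 1 to 5. The CNS4KO libraries lay on both sides of the CNS4Flox range and spread more widely, with 5.59% ± 0.566 in CNS4KO against 5.45% ± 0.121 in CNS4Flox (mean ± SD, n = 5 each). TRAJ30 held 4.65%, 4.72%, 6.22%, 5.99% and 5.30% in CNS4KO replicates 1 to 5, against 5.33%, 5.56%, 5.27%, 4.85% and 5.19% in CNS4Flox replicates 1 to 5. Replicates 3 and 4 were the highest and replicates 1 and 2 the lowest of all 10 libraries, all 4 of them CNS4KO.

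TRAJ34 was the only segment of the 3 whose mean was lower in CNS4KO. It held 4.34%, 4.84%, 5.02%, 4.51% and 4.73% in CNS4KO replicates 1 to 5, against 4.86%, 5.49%, 5.42%, 5.27% and 5.11% in CNS4Flox replicates 1 to 5. The groups overlapped through CNS4KO replicate 3, which lay above the lowest CNS4Flox library. None of these differences passed edgeR's quasi-likelihood test with Benjamini-Hochberg adjustment over all 31 TRAJ ends tested. The log2 fold change was 0.04 ± 0.08 (SE) for TRAJ12 (adjusted p 0.934), 0.04 ± 0.09 (SE) for TRAJ30 (adjusted p 0.934) and -0.16 ± 0.08 (SE) for TRAJ34 (adjusted p 0.566). Over all TRAJ ends 0 of 31 passed (0.0%), and 2 had an unadjusted p under 0.05.

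**Figure D1:**
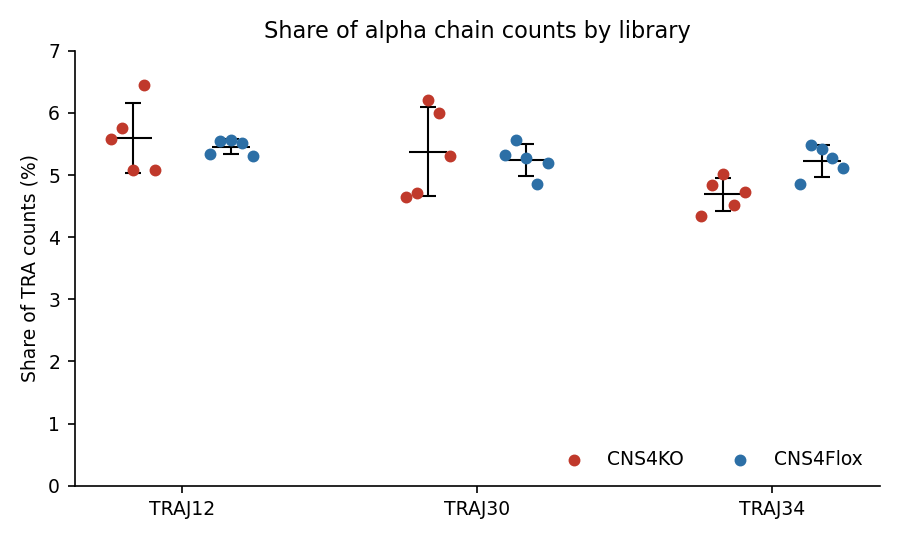
Share of alpha chain (TRA) counts in percent (y axis) held by TRAJ12, TRAJ30 and TRAJ34 (x axis), each point a library, CNS4KO in red left of CNS4Flox in blue; black lines are means with SD (n = 5 each). For TRAJ34 the CNS4KO points run from 4.34% to 5.02% and the CNS4Flox points from 4.86% to 5.49%, whereas for TRAJ12 and TRAJ30 the CNS4Flox points lie within the wider CNS4KO range.

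Counting each distinct nucleotide clonotype once gave no difference past the threshold either. TRAJ12 made up 4.66% ± 0.212 of the distinct TRA clonotypes in CNS4KO against 4.85% ± 0.188 in CNS4Flox (mean ± SD, n = 5 each). TRAJ30 made up 4.42% ± 0.146 in CNS4KO against 4.56% ± 0.300 in CNS4Flox, and TRAJ34 5.03% ± 0.252 in CNS4KO against 5.03% ± 0.289 in CNS4Flox (mean ± SD, n = 5 each). Adjusted p-values from edgeR were 0.665, 0.858 and 0.984 for TRAJ12, TRAJ30 and TRAJ34, while 1 of 31 TRAJ ends passed (3.23%). By mean share of TRA counts over the 10 libraries, TRAJ12 ranked 2, TRAJ30 ranked 3 and TRAJ34 ranked 7 of 31.

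As a description, the TRAJ ends whose share of TRA counts followed these 3 most closely over the 10 samples were TRAJ48 (Pearson r 0.92) and TRAJ56 (0.66) for TRAJ12. For TRAJ30 they were TRAJ26 (0.52) and TRAJ56 (0.36), and for TRAJ34 they were TRAJ53 (0.59) and TRAJ47 (0.57). All shares of a library have the same total, so these values are not independent of each other.

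The CDR3s of the 3 segments were among the shorter ones of this locus, and their length did not separate the groups. Mean length over distinct clonotypes, averaged over the 10 libraries, was 13.21 residues for TRAJ12, 13.29 for TRAJ30 and 12.97 for TRAJ34, placing them 25, 23 and 27 of 31 TRAJ ends from the longest, whose values ran from 12.46 to 15.45 with a median of 13.85. By group, mean length was 13.24 ± 0.0685 residues in CNS4KO against 13.18 ± 0.0283 in CNS4Flox for TRAJ12 (mean ± SD, n = 5 each). It was 13.27 ± 0.0416 in CNS4KO against 13.32 ± 0.0267 in CNS4Flox for TRAJ30, and 12.96 ± 0.0355 in CNS4KO against 12.98 ± 0.0354 in CNS4Flox for TRAJ34.

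No difference in length passed a two-sided exact permutation test over all assignments of the samples to the groups, with adjusted p-values over 31 TRAJ ends of 0.668, 0.668 and 0.80 for TRAJ12, TRAJ30 and TRAJ34 (0.0% of TRAJ ends passed). The commonest length was 13 residues in TRAJ12, at 36.8% ± 1.48 of distinct clonotypes in CNS4KO against 36.9% ± 1.38 in CNS4Flox (mean ± SD, n = 5 each). TRAJ34 peaked more sharply at 13 residues, with 40.6% ± 0.80 in CNS4KO against 40.8% ± 1.10 in CNS4Flox. TRAJ30 was broader and peaked at 14 residues, with 32.5% ± 2.50 in CNS4KO against 33.7% ± 1.08 in CNS4Flox.

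**Figure D2:**
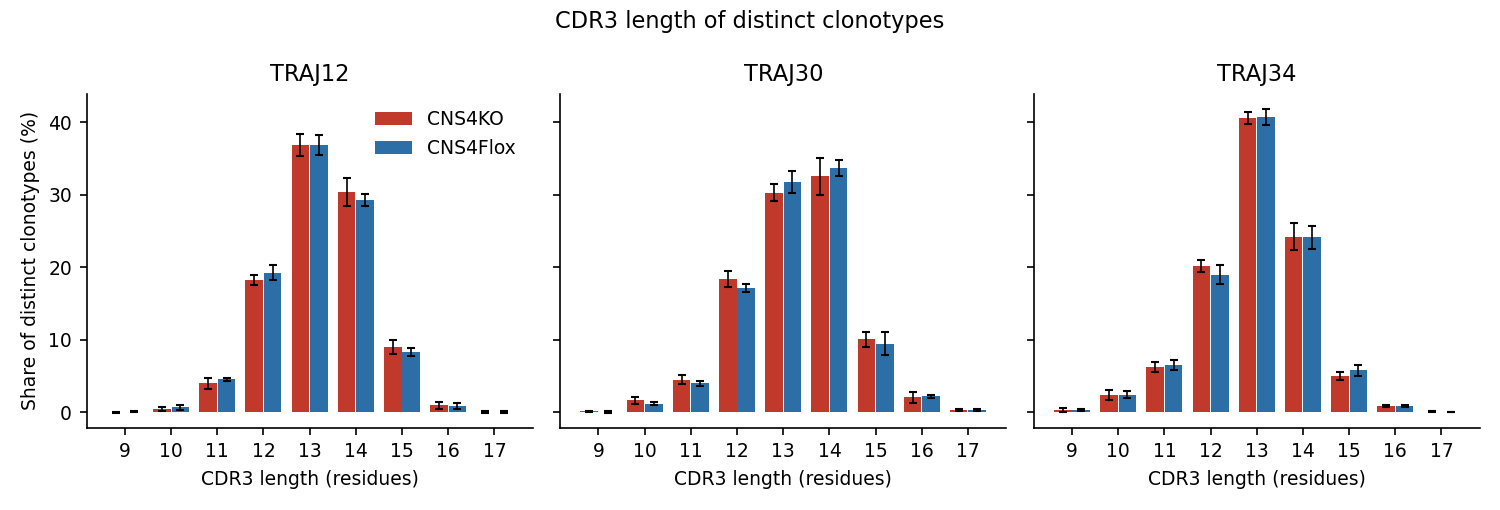
Share of distinct nucleotide clonotypes in percent (y axis) by CDR3 length in residues (x axis) for TRAJ12, TRAJ30 and TRAJ34; bars are means and lines SD over 5 CNS4KO libraries (red, left) and 5 CNS4Flox libraries (blue, right). Bars of both groups are nearly level at each length, with the peak at 13 residues for TRAJ12 and TRAJ34 and at 14 for TRAJ30.

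The length of the match to the shared J end did not separate the groups. From the CDR3 end, an unbroken match to the sequences printed above ran over 25.16 ± 0.0945 bases in CNS4KO against 25.07 ± 0.0502 in CNS4Flox for TRAJ12 (mean ± SD, n = 5 each), of 27 bases. For TRAJ30 it ran over 24.37 ± 0.0231 bases in CNS4KO against 24.43 ± 0.0643 in CNS4Flox, of 25, and for TRAJ34 over 24.28 ± 0.0729 in CNS4KO against 24.24 ± 0.0770 in CNS4Flox, of 26. Exact permutation tests gave adjusted p-values of 0.844, 0.844 and 0.976 (0.0% of TRAJ ends passed). The rule fixed the last 5 residues, so only the bases before them and silent changes could differ. The match also could not run past the start of the printed sequence, so J bases ahead of it were not measured. For TRAJ30 the means were close to the 25 bases possible.

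The first 3 residues of the CDR3, which the V segment provides, were mostly the same few in each set. In TRAJ12 the commonest starts were CAA with 27.6% ± 2.51 of distinct clonotypes in CNS4KO against 28.6% ± 1.98 in CNS4Flox (mean ± SD, n = 5 each), and CAL with 28.3% ± 0.871 in CNS4KO against 26.9% ± 0.877 in CNS4Flox. CAV came next, with 18.9% ± 1.43 in CNS4KO against 19.5% ± 0.570 in CNS4Flox. TRAJ30 began most often with CAL, at 30.3% ± 1.47 in CNS4KO against 29.7% ± 2.07 in CNS4Flox, and with CAA, at 26.1% ± 2.34 in CNS4KO against 26.9% ± 1.87 in CNS4Flox. CAV, the next, had 18.2% ± 1.37 in CNS4KO against 18.8% ± 1.24 in CNS4Flox.

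TRAJ34 leaned most towards CAL, at 34.1% ± 1.11 of distinct clonotypes in CNS4KO against 32.9% ± 2.26 in CNS4Flox (mean ± SD, n = 5 each). CAA followed with 28.4% ± 2.15 in CNS4KO against 30.5% ± 1.35 in CNS4Flox, and CAV with 15.5% ± 0.665 in CNS4KO against 15.3% ± 1.52 in CNS4Flox. In edgeR's quasi-likelihood test of distinct clonotypes over all 219 combinations of start and TRAJ end, none of the 28 combinations of these segments differed between the groups (0 of 219 passed, 0.0%). The smallest unadjusted p of the 28 was 0.0370, for CAI in TRAJ12, with a log2 fold change of -0.33 ± 0.14 (SE) and an adjusted p of 0.467. Unadjusted p-values under 0.05 occurred in 20 of the 219.

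Against the other TRAJ ends of the same library, the starts of the 3 segments did differ, and so did those of most TRAJ ends. In an exact sign-flip test over the 10 libraries, 5 of 8 starts of TRAJ12, 7 of 10 of TRAJ30 and 6 of 10 of TRAJ34 passed, where 63.0% of all 219 combinations passed, a similar proportion. Without the pair of libraries with many sequences in common, 5 of 8, 5 of 10 and 5 of 9 passed, where 118 of 205 combinations did. CAL made up 27.6% of TRAJ12 clonotypes and 30.9% of those with other TRAJ ends, lower in 10 of 10 libraries, whereas for TRAJ34 it made up 33.5% against 30.6%, higher in 10 of 10 (adjusted p 0.00503 each, the lowest value reached). CAV ran the other way, with 19.2% of TRAJ12 clonotypes against 16.99% elsewhere, and 15.4% of TRAJ34 clonotypes against 17.2% elsewhere (adjusted p 0.00503 each, exact sign-flip test). Chosen after their values were seen, CAT took 5.78% of TRAJ12 clonotypes against 3.52% elsewhere, and CAM took 5.66% of TRAJ34 clonotypes against 8.33% elsewhere (adjusted p 0.00503 each, exact sign-flip test).

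A small number of CDR3s was found in every library and held a large part of the counts. Of 2894 TRAJ12 CDR3s, 60 were in all 10 libraries and held 34.5% of the TRAJ12 counts, while 1723 were in a single library and held 11.9%. Of 3238 TRAJ30 CDR3s, 39 were in all 10 libraries with 29.7% of counts, and 2116 in a single library with 16.0%. Of 3470 TRAJ34 CDR3s, 53 were in all 10 libraries with 23.8% of counts, and 2258 in a single library with 19.1%. The CDR3s in all 10 libraries stayed 60, 39 and 53 after entries with under 1% of the highest count of the same sequence in another library, a possible carry-over, were left out. A count of 1 passed this filter unless the same sequence was very abundant in another library. The filter could therefore remove few entries, and carry-over of less abundant sequences was not tested.

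**Figure D3:**
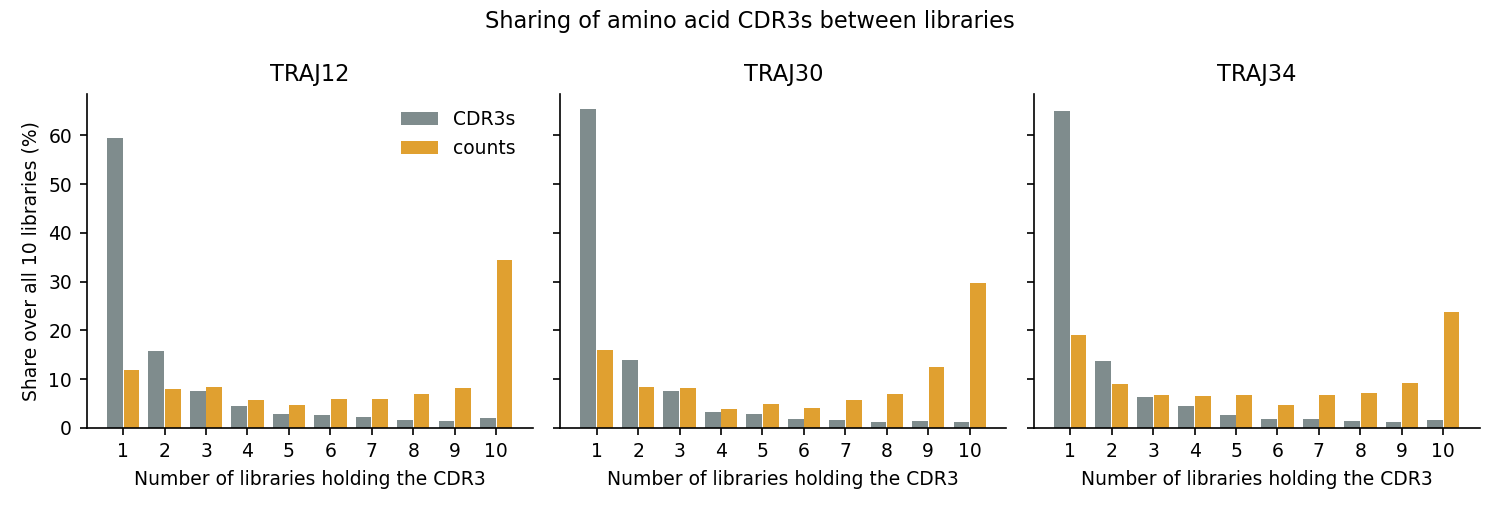
Share in percent (y axis) of the distinct amino acid CDR3s (grey, left) and of the counts (orange, right) of TRAJ12, TRAJ30 and TRAJ34, pooled over the 10 libraries, by the number of libraries that hold the CDR3 (x axis). CDR3s of a single library make up 59.5% to 65.3% of all CDR3s, and those in all 10 libraries hold 23.8% to 34.5% of the counts.

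The widely shared CDR3s were short, matched more of the shared J end and were written in many ways. Within a library, TRAJ12 CDR3s present in all 10 libraries averaged 12.9 residues over the libraries, against 13.6 for CDR3s found in that library alone, and they were shorter in 10 of 10 libraries. The same comparison gave 12.9 against 13.6 residues in TRAJ30 and 12.6 against 13.2 in TRAJ34, again shorter in 10 of 10 libraries. They matched the shared J end over 26.1 against 24.3 bases in TRAJ12, 24.9 against 23.7 in TRAJ30 and 25.3 against 23.3 in TRAJ34. These are descriptions, since the classes were made from the same libraries.

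None of the CDR3s in all 10 libraries rested on a single nucleotide sequence. They had 3 to 24 sequences in TRAJ12 with a median of 10, 3 to 19 in TRAJ30 with a median of 11, and 3 to 27 in TRAJ34 with a median of 10. A single nucleotide sequence was present in all 10 libraries for 11 of the 60 TRAJ12 CDR3s, 3 of the 39 TRAJ30 CDR3s and 6 of the 53 TRAJ34 CDR3s. For 7, 6 and 10 of them, no nucleotide sequence was in over 5 libraries, so their presence in every library came from different sequences. The number of sequences rose with the number of libraries at each step: pooled TRAJ12 CDR3s in 2 libraries had 1.83 sequences on average, those in 5 had 3.71 and those in 10 had 10.35. A CDR3 in more libraries also has more counts, so this rise is partly set by how it is counted.

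The most abundant TRAJ12 CDR3s in all 10 libraries were CAAG, CAAE and CAASR. CAAG had 221, 71, 43, 37 and 38 counts in CNS4KO replicates 1 to 5, against 68, 160, 76, 83 and 100 in CNS4Flox replicates 1 to 5. CAAE had 73, 51, 43, 33 and 113 counts in CNS4KO replicates 1 to 5, against 86, 92, 243, 31 and 82 in CNS4Flox replicates 1 to 5. The groups overlapped for both. CAASR had 42, 126, 139, 151 and 5 counts in CNS4KO replicates 1 to 5, against 27, 5, 20, 25 and 46 in CNS4Flox replicates 1 to 5, so that CNS4KO replicates 2 to 4 were the highest and replicate 5 shared the lowest count.

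These 3 differ in how they are encoded. Most CAAE counts came from a single sequence that was in all 10 libraries, with 747 counts, and in the lines below capitals mark the unbroken match to the shared TRAJ12 end. CAASR had 18 sequences, of which the most widespread was in 8 libraries with 48 counts.
CAAG: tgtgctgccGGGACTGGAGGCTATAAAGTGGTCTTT
CAAE: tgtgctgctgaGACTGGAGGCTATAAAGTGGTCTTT
CAASR: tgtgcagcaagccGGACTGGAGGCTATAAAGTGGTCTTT

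Among TRAJ30 CDR3s in all 10 libraries, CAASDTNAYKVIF, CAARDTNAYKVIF and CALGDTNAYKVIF had the highest mean shares. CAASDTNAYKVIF had 105, 161, 99, 25 and 92 counts in CNS4KO replicates 1 to 5, against 35, 89, 282, 175 and 225 in CNS4Flox replicates 1 to 5, with overlapping groups. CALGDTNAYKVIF, whose commonest sequence was in all 10 libraries, had 55, 102, 110, 71 and 78 counts in CNS4KO replicates 1 to 5, against 35, 33, 42, 68 and 57 in CNS4Flox replicates 1 to 5. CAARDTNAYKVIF had 428 counts in CNS4KO replicate 4 and 12 to 55 in the other CNS4KO libraries, against 2 to 15 in CNS4Flox libraries. Its mean share therefore came mainly from a single library.

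In TRAJ34 the 3 were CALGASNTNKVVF, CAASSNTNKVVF and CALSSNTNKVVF. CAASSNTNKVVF had 29, 44, 27, 123 and 56 counts in CNS4KO replicates 1 to 5, against 29, 57, 31, 87 and 20 in CNS4Flox replicates 1 to 5, with no separation of the groups. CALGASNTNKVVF had 323 counts in CNS4Flox replicate 4 and 5 to 22 in the other CNS4Flox libraries, against 2 to 95 in CNS4KO. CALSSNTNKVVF had 232 counts in CNS4KO replicate 2 and 14 to 37 in the other CNS4KO libraries, against 9 to 54 in CNS4Flox. A single library led the last 2 of these.

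The counts held by CDR3s of all 10 libraries did not separate the groups. They were 33.3% ± 2.54 of TRAJ12 counts in CNS4KO against 36.1% ± 4.07 in CNS4Flox, and 24.0% ± 5.36 of TRAJ34 counts in CNS4KO against 24.2% ± 7.22 in CNS4Flox (mean ± SD, n = 5 each). For TRAJ30 they were 24.6%, 32.9%, 36.3%, 35.3% and 33.6% in CNS4KO replicates 1 to 5, against 24.1%, 23.0%, 27.9%, 29.3% and 28.6% in CNS4Flox replicates 1 to 5. All CNS4KO libraries but replicate 1 lay above every CNS4Flox library, where the exact permutation test gave 0.0397 unadjusted and an adjusted p of 0.872 over 31 TRAJ ends. The adjusted p was 0.872 for TRAJ12 and 0.984 for TRAJ34 in the same exact test (0.0% of TRAJ ends passed). Fewer CDR3s were in all 5 libraries of the group in CNS4KO, a count with no test: 83 TRAJ12, 61 TRAJ30 and 75 TRAJ34 CDR3s were in all 5 in CNS4KO, against 119, 93 and 116 in CNS4Flox. These were 2.28% of the 9602 CDR3s of the 3 segments in CNS4KO against 3.42% in CNS4Flox, where over all 74729 CDR3s with a TRAJ end they were 1.77% in CNS4KO against 2.74% in CNS4Flox. No CDR3 of the 3 segments was in all 5 CNS4KO and no CNS4Flox library, and 1 TRAJ12 and 1 TRAJ34 CDR3 were in all 5 CNS4Flox and no CNS4KO library, where over all TRAJ ends 4 CDR3s were in all 5 CNS4KO libraries alone and 26 in all 5 CNS4Flox libraries alone.

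At equal counts, CNS4KO libraries held fewer distinct nucleotide clonotypes of all 3 segments. Each segment was brought to the smallest count in any library, 2234 for TRAJ12, 1967 for TRAJ30 and 1809 for TRAJ34. TRAJ12 then had 635, 604, 667, 681 and 797 distinct clonotypes in CNS4KO replicates 1 to 5, against 1100.5, 939, 834, 1022 and 976 in CNS4Flox replicates 1 to 5, so the groups did not overlap. TRAJ30 had 570.4, 637, 519, 589.9 and 718 in CNS4KO replicates 1 to 5, against 1014, 886, 748, 893 and 784 in CNS4Flox replicates 1 to 5, again without overlap. For TRAJ34 the values were 655, 623, 691, 728 and 838 in CNS4KO replicates 1 to 5, against 1058, 944, 814, 852 and 843 in CNS4Flox replicates 1 to 5. There CNS4KO replicate 5 lay above CNS4Flox replicate 3, the pair with many sequences in common.

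The ratio of CNS4KO to CNS4Flox means was 0.695 for TRAJ12, 0.702 for TRAJ30 and 0.784 for TRAJ34. Exact permutation p-values were 0.00794, 0.00794 and 0.0159, of which 0.00794 is the smallest the design allows, and adjusted p-values over 31 TRAJ ends were 0.0164, 0.0164 and 0.0224. The same held for most of the locus: 28 of 31 TRAJ ends passed (90.3%), all lower in CNS4KO, the groups did not overlap in 15 of 31 (48.4%), and ratios ran from 0.671 to 0.856 with a median of 0.746. The 3 segments ranked 6, 7 and 23 from the lowest ratio. Without the pair of libraries with many sequences in common, TRAJ12 averaged 647 in CNS4KO against 1009 in CNS4Flox, TRAJ30 579 in CNS4KO against 894 in CNS4Flox, and TRAJ34 674 in CNS4KO against 924 in CNS4Flox (adjusted p 0.0305 each, exact permutation, where 0.0286 is the smallest unadjusted p).

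The call was lost when clonotypes with a count of 1 were left out. With them left out, TRAJ12 had 337 clonotypes in CNS4KO against 386 in CNS4Flox at equal counts, TRAJ30 had 289.8 in CNS4KO against 343 in CNS4Flox, and TRAJ34 had 336 in CNS4KO against 373 in CNS4Flox, with adjusted p-values of 0.318, 0.308 and 0.364 (exact permutation). The clonotypes with a count of 1 were removed before counts were made equal, while the libraries differed in depth. TRAJ12 had 2408 to 3803 counts in CNS4KO libraries against 2234 to 2654 in CNS4Flox libraries. Whether this order made the difference smaller was not tested. The number of cells per library is not known, so fewer cells in a library and fewer clonotypes among its cells cannot be told apart.

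**Figure D4:**
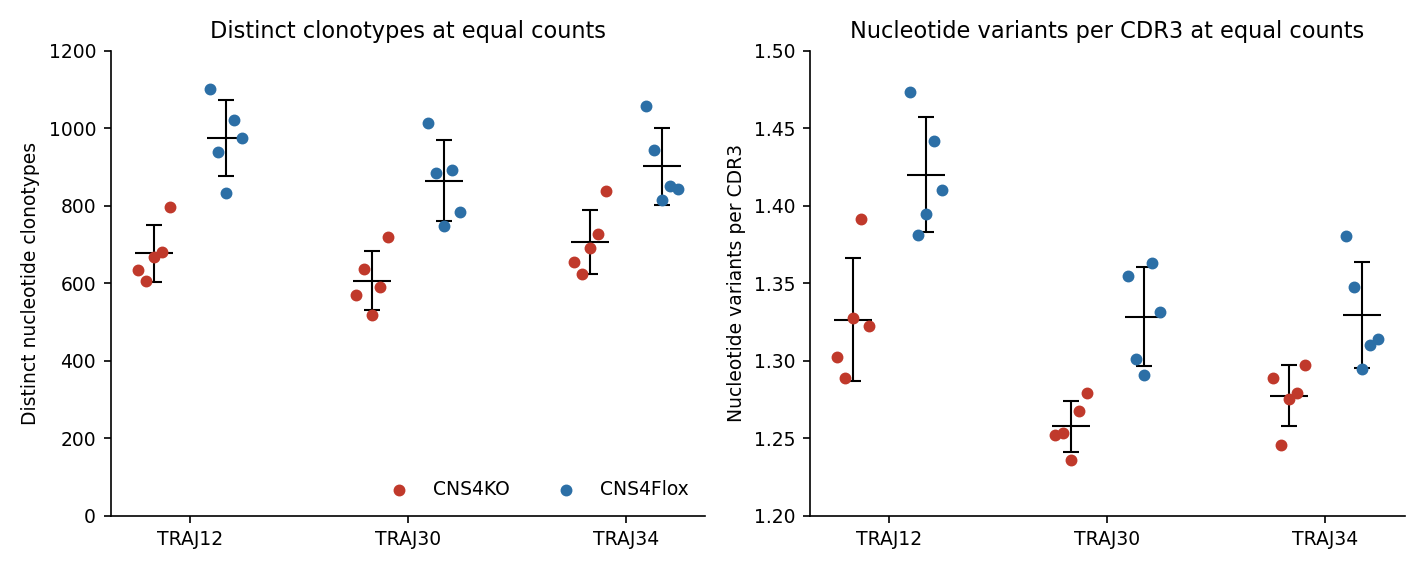
Distinct nucleotide clonotypes at equal counts (left y axis, count) and nucleotide variants per amino acid CDR3 at equal counts (right y axis, ratio, axis from 1.2) for TRAJ12, TRAJ30 and TRAJ34 (x axis); each point is a library, CNS4KO in red left of CNS4Flox in blue, with means and SD in black (n = 5 each). In the left panel CNS4KO points lie below all CNS4Flox points for TRAJ12 and TRAJ30, and for TRAJ34 all but CNS4KO replicate 5 do.

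On average over CDR3s, fewer nucleotide variants encoded an amino acid CDR3 in CNS4KO libraries at equal counts. The mean number of nucleotide variants per CDR3 was 1.33 ± 0.0395 in CNS4KO against 1.42 ± 0.0372 in CNS4Flox for TRAJ12, 1.26 ± 0.0164 in CNS4KO against 1.33 ± 0.0320 in CNS4Flox for TRAJ30, and 1.28 ± 0.0198 in CNS4KO against 1.33 ± 0.0344 in CNS4Flox for TRAJ34 (mean ± SD, n = 5 each). TRAJ30 values were 1.25, 1.25, 1.24, 1.27 and 1.28 in CNS4KO replicates 1 to 5, against 1.35, 1.30, 1.29, 1.36 and 1.33 in CNS4Flox replicates 1 to 5, without overlap, as in 8 of 31 TRAJ ends (25.8%). In TRAJ12, CNS4KO replicate 4 reached 1.39, above the lowest CNS4Flox library at 1.38. In TRAJ34, CNS4KO replicate 5 at 1.30 met the lowest CNS4Flox library at 1.29.

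Adjusted p-values over 31 TRAJ ends were 0.0328 for TRAJ12, 0.0308 for TRAJ30 and 0.0328 for TRAJ34 (exact permutation), and 17 of 31 TRAJ ends passed (54.8%), all lower in CNS4KO. The difference was not seen when numbers of distinct clonotypes were made equal, with each clonotype taken once whatever its count. Its cause was not tested. At equal numbers of distinct clonotypes, in a setting added after the data were seen, TRAJ12 had 1.32 variants per CDR3 in CNS4KO against 1.31 in CNS4Flox, TRAJ30 had 1.26 in CNS4KO against 1.25 in CNS4Flox, and TRAJ34 had 1.28 in CNS4KO against 1.27 in CNS4Flox (adjusted p 0.951 each, exact permutation). Without the pair of libraries with many sequences in common the adjusted p-values were 0.0933, 0.0590 and 0.0590, above the threshold, though the differences were not smaller. They were also above 0.05 without CNS4KO replicate 2 (0.0656, 0.0547 and 0.0656 for TRAJ12, TRAJ30 and TRAJ34), without CNS4Flox replicate 1 for TRAJ12 and TRAJ34 (0.0527 each) and without CNS4KO replicate 3 for TRAJ34 (0.0615; exact permutation).

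Most CDR3s of a library had a single nucleotide sequence. Without thinning, 21.7% ± 2.20 of TRAJ12 CDR3s had at least 2 in CNS4KO against 24.1% ± 2.10 in CNS4Flox, against 17.6% ± 1.47 in CNS4KO against 19.8% ± 0.946 in CNS4Flox for TRAJ30, and 18.4% ± 1.56 in CNS4KO against 20.5% ± 1.31 in CNS4Flox for TRAJ34 (mean ± SD, n = 5 each). The highest number within a library was 6 to 10 in TRAJ12, 6 to 11 in TRAJ30 and 8 to 11 in TRAJ34. Over all libraries, 44 TRAJ12, 48 TRAJ30 and 47 TRAJ34 CDR3s had at least 10 sequences, as many as the libraries.

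Variants of a CDR3 differed almost only before the J end. Among CDR3s with at least 2 sequences, 10.7% of the bases in the first 3 codons of TRAJ12 varied, 11.4% of those in the middle and 0.0372% of those in the last 6 codons. For TRAJ30 the values were 11.2%, 10.1% and 0.0339%, and for TRAJ34 11.6%, 12.5% and 0.0153%. Positions at the end of a codon made up 79.7%, 83.2% and 80.3% of the varying positions. Sequences of a CDR3 encode the same residues by definition, so only silent changes could appear, and most of these fall at the end of a codon. The sets were also chosen by the residues of their J end, although silent changes there remained possible. Both results were therefore largely set by how the sequences were grouped and are given as a description. The CAAR set printed above is an example, with all its changes ahead of the shared TRAJ12 end or at its edge.

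Other CDR3s rich in variants were CAASG in TRAJ12 with 21 sequences, a TRAJ30 CDR3 that begins CAATD and ends in TNAYKVIF with 17 and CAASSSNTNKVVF in TRAJ34 with 26. CAASG had 32 to 60 counts in CNS4KO libraries and 35 to 61 in CNS4Flox libraries. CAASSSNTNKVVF had 0, 9, 134, 11 and 7 counts in CNS4KO replicates 1 to 5, against 25, 10, 103, 13 and 27 in CNS4Flox replicates 1 to 5, with a single high library in each group. CAATD had 53, 12, 130, 139 and 58 counts in CNS4KO replicates 1 to 5, against 5, 5, 4, 0 and 88 in CNS4Flox replicates 1 to 5. Only CNS4Flox replicate 5 reached the CNS4KO range, and the adjusted p in edgeR's clonotype test was 0.559.

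Expanded clonotypes, here nucleotide sequences with at least 0.1% of the TRA counts of their library, took a larger mean share in CNS4KO for each segment, but no difference passed the test. Of the 31 TRAJ ends, the mean was lower in CNS4KO for 1, TRAJ47, 0 in both groups for TRAJ58 and higher in CNS4KO for all others. The median ratio was 2.69 over the TRAJ ends with a CNS4Flox mean above 0, against 3.10, 1.93 and 1.51 for TRAJ12, TRAJ30 and TRAJ34. In TRAJ12 they held 24.3%, 28.1%, 24.6%, 22.1% and 13.4% of the segment's counts in CNS4KO replicates 1 to 5, against 3.003%, 14.4%, 11.02%, 5.19% and 2.79% in CNS4Flox replicates 1 to 5. Only CNS4KO replicate 5 overlapped the CNS4Flox range, and only with replicate 2. The means were 22.5% ± 5.51 in CNS4KO against 7.27% ± 5.17 in CNS4Flox (mean ± SD, n = 5 each), where the exact permutation test gave 0.0159 unadjusted and an adjusted p of 0.191 over 31 TRAJ ends. Over the 10 fits that left out a single library, the difference was 13.9 to 17.5 percentage points, with adjusted p-values of 0.0410 to 0.328 (exact permutation). The lowest, past the threshold, was without CNS4KO replicate 5, the CNS4KO library with the smallest share. How many other TRAJ ends passed in that fit is not given, so it is no result particular to TRAJ12.

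TRAJ30 was the most expanded of the 3, with 27.9%, 16.3%, 40.8%, 38.6% and 15.1% of its counts in such clonotypes in CNS4KO replicates 1 to 5, against 4.86%, 12.1%, 24.7%, 10.6% and 19.7% in CNS4Flox replicates 1 to 5. The ranges overlapped, and the exact test gave an adjusted p of 0.226. TRAJ34 had 15.9%, 30.7%, 19.1%, 17.5% and 0% in CNS4KO replicates 1 to 5, against 0%, 5.32%, 15.9%, 21.7% and 12.0% in CNS4Flox replicates 1 to 5, with an adjusted p of 0.637 in the exact test. The libraries at 0% had a largest TRAJ34 clonotype of 0.0961% (CNS4KO replicate 5) and 0.0688% (CNS4Flox replicate 1) of TRA counts, below the threshold of 0.1%. Of 31 TRAJ ends, 0 passed (0.0%), and 7 had an unadjusted p under 0.05.

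**Figure D5:**
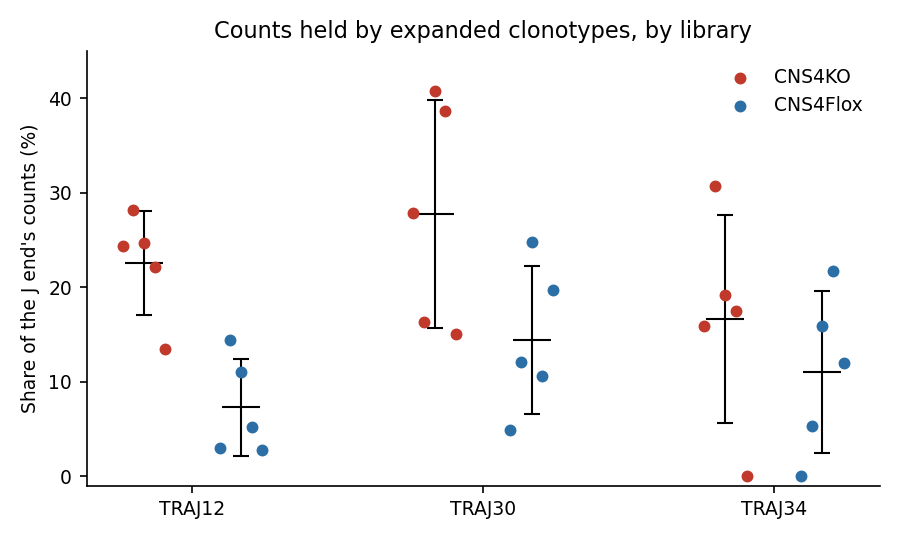
Share in percent (y axis) of the counts of TRAJ12, TRAJ30 and TRAJ34 (x axis) held by clonotypes with at least 0.1% of the TRA counts of their library; each point is a library, CNS4KO in red left of CNS4Flox in blue, with means and SD in black (n = 5 each). The CNS4KO points of TRAJ12 run from 13.4% to 28.1% and the CNS4Flox points from 2.79% to 14.4%, while the ranges of TRAJ34 both start at 0%.

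Expanded clonotypes numbered 33 in the 5 CNS4KO libraries and 11 in the 5 CNS4Flox libraries for TRAJ12, 28 in CNS4KO against 19 in CNS4Flox for TRAJ30, and 17 in CNS4KO against 15 in CNS4Flox for TRAJ34, counting a sequence once per library. Many carried a CDR3 that other libraries also had: 24 of the 33 and 7 of the 11 in TRAJ12, 20 of the 28 and 16 of the 19 in TRAJ30, and 11 of the 17 and 9 of the 15 in TRAJ34 had a CDR3 found in at least 5 libraries. CDR3s seen in no other library made up 1, 4 and 3 of them in CNS4KO, against 0, 1 and 1 in CNS4Flox, for TRAJ12, TRAJ30 and TRAJ34 in turn. Most of all counts of each segment were also held by CDR3s found in at least 5 libraries, and whether expanded clonotypes differed from that was not tested.

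The 3 largest TRAJ30 clonotypes were in different CNS4KO libraries. A sequence of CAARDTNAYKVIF held 1.05% of TRA counts in CNS4KO replicate 4 (95% Wilson interval 0.950% to 1.15%, 419 counts), which was 17.4% of the TRAJ30 counts there. A sequence of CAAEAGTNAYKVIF held 0.943% in CNS4KO replicate 3 (0.860% to 1.03%, 447 counts), and one of the CDR3 that begins CAAMG and ends in TNAYKVIF held 0.507% in CNS4KO replicate 1 (0.457% to 0.563%, 346 counts). Each of the 3 sequences had 0 counts in all other libraries, although the CDR3s of the first and second were found in all 10 libraries, with 160 and 190 counts elsewhere from other sequences. Capitals mark the unbroken match to the shared TRAJ30 end.
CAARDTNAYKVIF: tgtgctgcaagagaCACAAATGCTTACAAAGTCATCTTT
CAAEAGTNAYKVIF: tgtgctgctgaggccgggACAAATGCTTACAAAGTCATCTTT
CAAMG: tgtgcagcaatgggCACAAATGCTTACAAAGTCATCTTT

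The largest TRAJ12 clonotypes were of 2 kinds. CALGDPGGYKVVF held 0.495% of TRA counts in CNS4KO replicate 1 (0.445% to 0.551%, 338 counts), and CAMG held 0.436% in CNS4KO replicate 2 (0.382% to 0.497%, 218 counts). The first sequence had 0 counts and the second 1 count in all other libraries together. CAAE, by contrast, held 0.494% in CNS4Flox replicate 3 (0.434% to 0.562%, 229 counts), with the same sequence at 23 to 97 counts in every CNS4KO library and 26 to 77 in the other CNS4Flox libraries.
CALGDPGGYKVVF: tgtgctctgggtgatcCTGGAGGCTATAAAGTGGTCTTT
CAMG: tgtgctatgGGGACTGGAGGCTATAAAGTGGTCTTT

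In TRAJ34, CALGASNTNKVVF held 0.794% of TRA counts in CNS4Flox replicate 4 (0.712% to 0.885%, 322 counts), the largest clonotype of the 3 segments in that group. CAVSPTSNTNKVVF held 0.494% in CNS4KO replicate 3 (0.434% to 0.561%, 234 counts) and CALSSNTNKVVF 0.438% in CNS4KO replicate 2 (0.383% to 0.499%, 219 counts). These sequences had 0 counts in all other libraries. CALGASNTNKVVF and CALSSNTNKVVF were nevertheless in all 10 libraries as proteins, through 12 and 21 sequences.
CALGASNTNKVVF: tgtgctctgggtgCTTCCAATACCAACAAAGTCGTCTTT
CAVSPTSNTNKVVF: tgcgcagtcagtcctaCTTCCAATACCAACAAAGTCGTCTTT
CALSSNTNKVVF: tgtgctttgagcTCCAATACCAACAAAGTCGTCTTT

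Single CDR3s were compared between the groups over all 7176 amino acid TRA CDR3s that were in at least 5 libraries, and a single CDR3 of the 3 segments passed. Of the 9602 CDR3s of these segments, 1057 entered the test: 368 of TRAJ12, 322 of TRAJ30 and 367 of TRAJ34. In edgeR's quasi-likelihood test 9 of 7176 passed an adjusted p of 0.05 (0.125%). At an unadjusted p under 0.05 there were 86 of 1057, or 8.14%, against 8.63% of all 7176. Of these 86, 42 were higher and 44 lower in CNS4KO, where of the 619 over all CDR3s tested 246 were higher and 373 lower. The median log2 fold change was -0.33 over the 1057 and -0.32 over all.

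The CDR3 that passed was a TRAJ34 chain of 15 residues that began with CAMREG. It had 0, 0, 0, 1 and 1 counts in CNS4KO replicates 1 to 5, against 1, 2, 13, 2 and 65 in CNS4Flox replicates 1 to 5. The groups met at 1 count, and CNS4Flox replicate 5 held most of the counts. Presence in the 5 CNS4Flox libraries alone met the filter of at least 5 libraries, so this CDR3 entered the test through the group where it was higher. In all, 2 of 260896 TRA counts in CNS4KO and 83 of 221330 in CNS4Flox gave a ratio of shares of 0.0204 (exact 95% interval 0.00244 to 0.0762). This interval takes the pooled counts as independent and leaves out the spread between libraries, although 65 of the 83 came from CNS4Flox replicate 5. The fitted log2 fold change was -5.03 ± 1.18 (SE; adjusted p 0.0433, edgeR's quasi-likelihood test). Without CNS4Flox replicate 5 the adjusted p was 0.468 in the same test, and it was above 0.05 in 4 of the 9 fits that left out another library: CNS4KO replicate 1, 2 or 5 or CNS4Flox replicate 4. Without the pair of libraries with many sequences in common it was 0.0615, and no CDR3 passed (0 of 775, with 62 at an unadjusted p under 0.05, edgeR).

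Its 4 nucleotide sequences differed at a single base, the last base of a glycine codon, and 2 of them were found in CNS4Flox alone. The first line, at 65 counts in CNS4Flox replicate 5 and 12 in CNS4Flox replicate 3, carried nearly all of its counts. The second line had 1 count in CNS4KO replicate 4 and 3 in CNS4Flox libraries.
TRAJ34 chain, most counts: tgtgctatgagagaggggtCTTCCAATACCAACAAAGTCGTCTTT
TRAJ34 chain, most libraries: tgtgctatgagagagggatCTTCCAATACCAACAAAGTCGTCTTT

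For TRAJ12 and TRAJ30 no CDR3 passed, and 3 of the 4 with the smallest p-values had most of their counts in a single library. CATDP had 80, 7, 0, 1 and 6 counts in CNS4KO replicates 1 to 5, against 0, 0, 1, 1 and 0 in CNS4Flox replicates 1 to 5 (log2 fold change 4.66 ± 1.2, SE, adjusted p 0.0748, edgeR). CAASSG had 1, 1, 0, 2 and 1 counts in CNS4KO replicates 1 to 5, against 6, 9, 7, 39 and 12 in CNS4Flox replicates 1 to 5, so that every CNS4Flox library lay above every CNS4KO library (log2 fold change -3.94 ± 1.02, SE, adjusted p 0.0797, edgeR). Its 7 sequences spread these counts over the CNS4Flox libraries, apart from 36 counts of a single sequence in CNS4Flox replicate 4. Presence in the 5 CNS4Flox libraries alone met the filter of at least 5 libraries, so CAASSG entered the test through the group where it was higher. It was also named for its small p-value, so the separation of the groups is a description. How many of all CDR3s tested separated the groups in this way was not counted.

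In TRAJ30 the smallest p-values belonged to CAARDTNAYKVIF, described above (log2 fold change 3.68 ± 0.998, SE, adjusted p 0.111, edgeR), and to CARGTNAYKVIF. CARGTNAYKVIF had 0, 4, 2, 4 and 0 counts in CNS4KO replicates 1 to 5, against 5, 0, 2, 3 and 175 in CNS4Flox replicates 1 to 5 (log2 fold change -4.05 ± 1.12, SE, adjusted p 0.115, edgeR). Outside CNS4Flox replicate 5 the groups had similar counts. Each of its 13 nucleotide sequences was found in a single library, so this CDR3 recurred in 7 libraries without any shared sequence, and the 175 counts came from the sequence below.
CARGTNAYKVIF: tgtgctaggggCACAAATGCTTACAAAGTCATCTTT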

How the data were processed

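T cell receptor transcripts were sequenced from 10 samples of splenic Treg cells, 5 CNS4KO and 5 CNS4Flox, numbered within a group in sample order. Per the file headers, each deposited table gives a whole-number count per clonotype and a fraction, the count over the library total, which held to rounding. The submitters' processing notes name mm10; the aligner and clonotype caller are not given in the sources used here. The CDR3 ends of other TRAJ segments were written from general knowledge. Alpha chain (TRA) entries were those whose last 4 residues match a TRAJ end; entries with the same J end and CDR3 nucleotides were added up, whatever the listed V name.

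Counts per TRAJ end, start and amino acid CDR3 were compared with edgeR 4.0.16 (quasi-likelihood, TRA total as library size, no TMM, at least 10 counts, or presence for CDR3s, in at least 5 samples; R 4.3.3), with DESeq2 1.42.0 as an alternative. Values per library went through an exact permutation test, two-sided, over all assignments of samples to groups (scipy 1.17.1 with numpy 2.4.6 and pandas 2.3.3 in Python 3.11.15; figures with matplotlib 3.10.9). P-values were adjusted by Benjamini-Hochberg over the whole table. Distinct clonotypes and variants were rarefied expectations at equal counts. The procedures were tested on simulated data with known differences. Members, lists and tests were chosen with earlier results of these data known. Named for each segment were the 3 most abundant CDR3s in all 10 libraries, the 3 largest clonotypes of any library, CDR3s past the threshold or else the 2 with the smallest p, the 2 with the most variants, the 3 commonest starts and the 2 TRAJ ends most alike in share. The comparison of starts with other TRAJ ends and the match to the shared J end were added after the data were seen.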

Additional observations from a re-analysis of the deposited data

Results flagged for a closer look

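The share of TRAJ30 counts held by CDR3s of all 10 libraries was 24.6% in CNS4KO replicate 1, far from the other 4 CNS4KO libraries, which lay between 32.9% and 36.3%. Its gap to the nearest of them was 0.711 of the range of the group, just above the critical value of 0.71 in Dixon's test for 5 samples. It was the only such value among 42 groups of 5 looked at, where chance alone gives about 1 in 20.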

How the results depend on the processing

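The lower numbers of distinct clonotypes in CNS4KO held without any single library and without CNS4KO replicate 5 and CNS4Flox replicate 3 together, but with clonotypes of a count of 1 left out the differences (CNS4KO minus CNS4Flox) were -49.6, -52.8 and -36.2 for TRAJ12, TRAJ30 and TRAJ34 and missed the threshold. In that setting variants per CDR3 differed by -0.0871, -0.0528 and -0.0484 (adjusted p 0.0703, 0.123 and 0.1999, exact permutation), bases kept at the J end by -0.0622 for TRAJ34, the share in CDR3s of all 10 libraries by -1.29 percentage points for TRAJ30 and the log2 share of distinct clonotypes by -0.0291 for TRAJ34, each of the last 3 with the sign turned; starts passing against other TRAJ ends were 3 of 5 for TRAJ30 and 3 of 6 for TRAJ34, where 68 of 132 combinations passed. At equal numbers of distinct clonotypes the differences in variants were 0.00750, 0.00363 and 0.00789, and without thinning -0.0514 for TRAJ34 (adjusted p 0.0820). Without the library pair they were -0.0988, -0.0855 and -0.0657, past no threshold; with 4 samples a group the smallest unadjusted p was 0.0286. Leaving out single libraries gave -0.110 to -0.0803, -0.0801 to -0.0641 and -0.0607 to -0.0393, and the call was lost in 2, 1 and 3 of the 10 fits.

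Counting CDR3s of at least 8 libraries turned the TRAJ12 difference to 0.485 percentage points, and single libraries moved that of TRAJ34 from -2.14 to 2.96. The expanded share of TRAJ12 ranged from 13.9 to 17.5 points without single libraries. Log2 shares of counts ranged from -0.0208 to 0.0680 for TRAJ12 and -0.0215 to 0.0841 for TRAJ30, and log2 shares of distinct TRAJ34 clonotypes from -0.0201 to 0.0323, with -0.00532 without the pair and -0.00868 with TMM. CDR3s of the 3 segments passing numbered 0 of 775 without the pair (0 of 5034 over all TRA CDR3s), 0 of 1057 with TMM (3 of 7176; 82 members at an unadjusted p under 0.05), 6 of 1057 with DESeq2 (12 of 7176), 25 of 3505 with no filter on low counts (122 of 26091) and 0 to 5 without single libraries (2 to 28 over all). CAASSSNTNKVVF had a log2 fold change of 0.96 without the pair, 0.0273 with DESeq2 and -2.43 to 0.69 without single libraries; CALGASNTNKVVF ranged from -2.86 to 1.19, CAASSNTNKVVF from -0.54 to 0.60 and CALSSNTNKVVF from -0.87 to 1.01. Where no value above shows it, the cause was not tested. Merging possible errors, leaving out possible carry-over and a 6-residue J end were also tried. The planned count of germline J bases was not run, for want of a genome. No paired analysis was possible because replicate numbers follow sample order only. The test of single CDR3s was tried on data simulated with a common spread for all CDR3s, with changes put into 200 of the more abundant ones. Of those that still entered the test, it recovered 1.06% of changes of 8-fold and 91.6% of changes of 64-fold. Changed CDR3s that fell below the filter of at least 5 libraries were not counted, so recovery over all of them was lower.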
